A study of Mus musculus with 9 samples.

Results

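A set of p53 targets known for roles in redox control, metabolism and DNA repair was followed in E12.5 mouse cortices that lack Cnot3, or Cnot3 and Trp53. The members are Sesn1, Sesn2, Tigar, Rrm2b, Xpc, Ddb2, Polk, Rps27l, Ei24 and Ercc5. They were taken as a list of 10 symbols and matched to Ensembl identifiers among the 57010 genes counted. All 10 passed the filter on low counts, above 10 reads in each of the 9 embryos, which left 13680 genes for testing. The data are bulk RNA-seq read counts from the cortex of single embryos, with 3 embryos of each of 3 genotypes: controls (Ctrl), embryos with a conditional deletion of Cnot3 (cKO), and embryos in which Trp53 is deleted together with it (dcKO). Ctrl embryos carry the genotype label WT, and whether they had a floxed allele or Cre is not given in the sources used here. In cKO the floxed Cnot3 alleles, and in dcKO the floxed Cnot3 and Trp53 alleles, are deleted by Emx1-Cre, which acts in radial glial cells (RGCs) of the dorsal telencephalon and in their progeny. Cells of other lineages in the dissected tissue keep both genes. Cnot3 encodes a subunit of CCR4-NOT, the complex that shortens the poly(A) tails of mRNAs. The dcKO addresses which effects of losing Cnot3 need p53.

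p53 is a transcription factor that is stabilised when cells are damaged or stressed. Its best known targets stop the cell cycle, feed back on p53 or start apoptosis, while the targets described here are known for limiting oxidative damage, redirecting metabolism and repairing DNA. In the embryonic cortex p53 is best known as the cause of progenitor death when cell division, ribosomes or the genome are disturbed. SESN1 and SESN2 are stress-induced sestrins that restrain mTORC1 and support antioxidant defence. TIGAR lowers fructose-2,6-bisphosphate and so turns glucose toward the pentose phosphate pathway. RRM2B is the p53-inducible small subunit of ribonucleotide reductase. XPC and DDB2 recognise damage in nucleotide excision repair, ERCC5 (XPG) makes the 3′ incision of that pathway, and POLK is a DNA polymerase that copies past lesions. RPS27L is a ribosomal protein paralogue, and EI24 is a protein of the endoplasmic reticulum membrane.

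p53 binds DNA at pairs of a 10-base half-site, so the start sites of the members were searched for one. RefSeq promoter sequence (GRCm38.p6) of 300 bases, 250 before and 50 after a start site, was on hand for 7 members, with 10 start sites among them. The p53 consensus half-site, which reads the same on both strands, occurred 5 times, in 4 of these 10 windows and in 4 members. Of all 32851 promoter windows 8.36% held it. The 5 matches are shown in 30 bases each, 5′ to 3′ on the strand of the gene and with the half-site in capitals, because they are the only such letters in these windows:
Ei24: cgtgcggcccGGGCATGCCCagtgtgggcg
Rps27l: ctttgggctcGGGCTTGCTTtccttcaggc
Rps27l: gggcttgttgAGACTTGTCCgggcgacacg
Sesn1: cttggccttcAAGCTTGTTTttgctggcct
Polk: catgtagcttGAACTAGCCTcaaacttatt
They lie at chr9:36797325-36797354 (minus strand), chr9:66946193-66946222 and chr9:66946296-66946325 (plus strand), chr10:41887256-41887285 (plus strand) and chr13:96519399-96519428 (minus strand). The half-site begins 10 bases before the start site of Ei24, 210 and 107 bases before the second listed start site of Rps27l, 173 before the second of Sesn1 and 231 before the first of Polk. The windows of Sesn2, Tigar and Ercc5 held no match, which says only that these letters are not in these windows. A match is a description of letters and not of binding.

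The labels were first checked on the deleted genes, in CPM, read counts divided by the TMM-scaled library size. Cnot3 had 117.3, 107 and 98.2 CPM in the Ctrl embryos, replicates 1 to 3, against 15.0, 17.3 and 14.6 in cKO and 7.33, 48.2 and 19.0 in dcKO. Trp53 had 237, 254 and 215 CPM in Ctrl, 167, 164 and 167 in cKO and 15.1, 110 and 20.6 in dcKO. Every mutant embryo was below every Ctrl embryo for both genes, but the second dcKO embryo kept a fraction of 0.469 of the Ctrl mean of Trp53 and 0.449 of that of Cnot3. The edgeR log2 fold changes against Ctrl were -2.78 (SE 0.53, adjusted p = 0.0509) in cKO and -2.11 (SE 0.52, adjusted p = 0.0529) in dcKO for Cnot3, and -0.50 (SE 0.59) and -2.27 (SE 0.62, adjusted p = 0.0605) for Trp53. Counts are over whole genes. The dcKO embryos also stood apart in base composition. The median log2 level, centred over embryos, of genes whose exons are over 54.2% GC minus that of genes under 44.8% was 0.29 to 0.74 in Ctrl, -0.19 to 0.12 in cKO, and -1.06, -1.39 and 0.87 in the 3 dcKO embryos. Total counts were 21193798 to 28869816 in Ctrl, 24835674 to 25946075 in cKO and 23275370 to 45073349 in dcKO. The mean chi-square per gene between embryos of a genotype, about 1 for sampling noise, was 15.6 to 53.8 within Ctrl and cKO and 185 to 507 within dcKO. All 5 markers of the dorsal telencephalon had reads in every embryo, with summed levels of 967 to 1544 CPM in Ctrl, 732 to 789 in cKO and 929 to 1218 in dcKO. Emx1 itself, the gene that drives Cre, had 43.8 to 120 CPM in Ctrl, 20.4 to 23.7 in cKO and 7.94, 17.7 and 80.9 in dcKO. The 6 markers of the ganglionic eminence summed to 5.98 CPM in dcKO replicate 2, the embryo that kept the most Cnot3 and Trp53 mRNA, and to at most 0.489 in the other 8 embryos, and none of them had reads in every embryo. In that embryo Dlx2 had 2.25, Gad2 2.04 and Dlx1 1.20 CPM. The summed CPM of markers of other cells in the dissection, which single abundant genes can carry, had these ranges in Ctrl, cKO and dcKO: neurons 1011 to 1386, 703.5 to 1115 and 507.5 to 1120, meninges 770 to 848 in Ctrl, 444 to 678 in cKO and 316 to 511 in dcKO, endothelium 168 to 222, 165 to 225 and 106 to 115, microglia and macrophages 32.9 to 41.2, 33.6 to 71.8 and 12.8 to 29.2, erythroid cells 6076 to 8871, 7574 to 11695 and 3833 to 5477, and hem and choroid plexus 22.9 to 48.8, 62.2 to 209 and 78.8 to 222. The genes within a list differed. Of the meningeal markers Col1a2 had 149 to 168 CPM in Ctrl and 80.8 to 146 in cKO, whereas Lum had 43.2 to 67.3 and 54.9 to 71.2 and Dcn 21.9 to 29.4 and 23.5 to 30.8. Of the erythroid markers Hbb-y had 3555 to 4740 CPM in Ctrl and 4829 to 8141 in cKO, and Hba-a1 1040 to 2376 and 1258 to 1826. Their part in the results was not tested. In bulk tissue, fewer cells of a type and less RNA per cell cannot be told apart.

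In control cortices the members spanned a wide range of levels. Per kilobase of exon, the mean of 3 Ctrl embryos was 100 CPM for Rps27l and 29.8 for Ei24. It was 7.92 for Sesn1, 6.22 for Tigar, 5.89 for Xpc, 5.58 for Ercc5 and 3.79 for Sesn2. Polk, Rrm2b and Ddb2 were lowest, at 1.31, 1.11 and 0.850. The embryos of Tigar, Xpc and Ercc5 overlapped on this scale, as did those of Polk with Rrm2b and of Rrm2b with Ddb2, while the other neighbours in this order were separate. In cKO the mean per kilobase of Sesn2 was 12.9, and its embryos, at 8.64 to 18.3, were above those of Tigar and Xpc and overlapped with those of Ercc5, at 9.64 to 10.2, and of Sesn1, at 12.96 to 16.4. Rps27l has a close paralogue, Rps27, and how reads that fit both were counted is not given in the sources used here, so its level is uncertain.

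**Figure D1:**
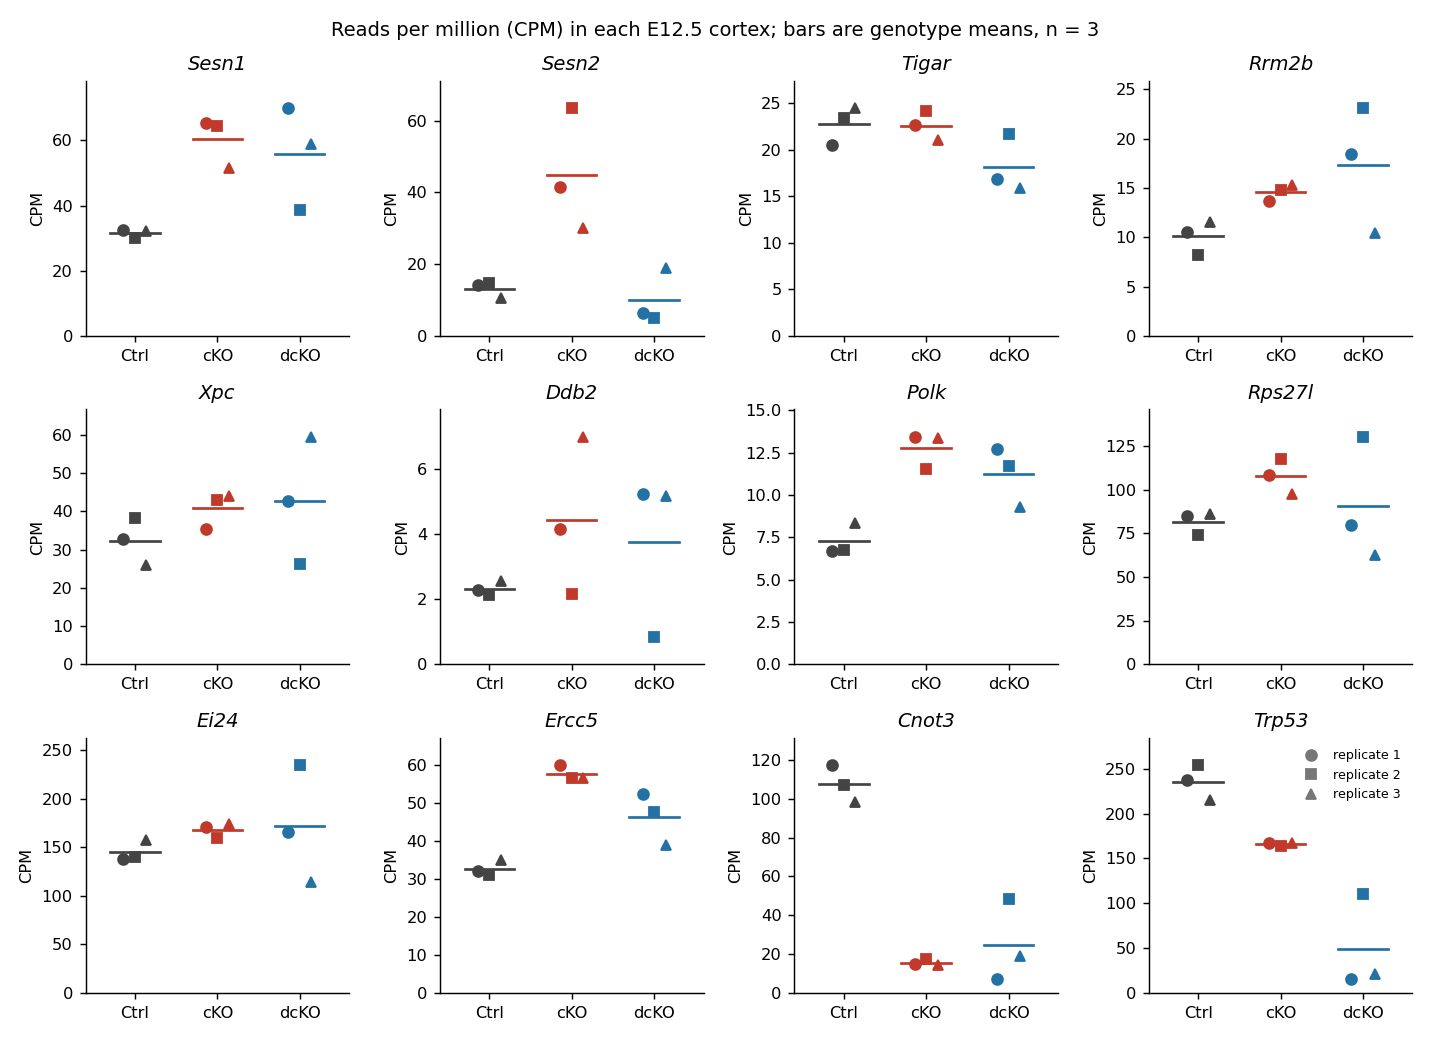
Levels in CPM (linear axis from 0) of the 10 members, Cnot3 and Trp53 in each embryo. Points are embryos, with the shape giving the replicate number, and bars are genotype means (n = 3). Every cKO embryo lies above every Ctrl embryo for 7 members, and the SD in CPM is largest in dcKO for every member but Sesn2, where it is 16.99 in cKO and 7.80 in dcKO.

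In cKO cortices Sesn2, Sesn1, Ercc5 and Polk were up-regulated by DESeq2, the tool of the study, and Tigar, Xpc, Ddb2, Rrm2b, Rps27l and Ei24 did not pass its test. Of the 10 members, 4 had a DESeq2 adjusted p under 0.05 and were higher, where 9.60% of all tested genes did, and 0 were lower (7.07% of all genes). Only Sesn2 also had a log2 fold change above 1 in DESeq2 (4.94% of all genes). edgeR's quasi-likelihood test over the 9 embryos, which called a gene where the adjusted p was under 0.05 and the log2 fold change beyond 1 in size, called 0 members in either direction, where 0.0146% of all genes were called higher and 0% lower. At an unadjusted p under 0.05 edgeR had the same 4 members higher, against 15.3% of all genes. Their edgeR adjusted p-values lay just above the threshold, between 0.0509 and 0.0804. For 7 of the 10 members every cKO embryo lay above every Ctrl embryo, as for 29.2% of all genes, and an exact permutation test of 3 embryos against 3 cannot go below p = 0.10. The median edgeR log2 fold change was 0.67 over the members and 0.01 over all genes. It was 0.46 and -0.05 after a correction for GC content, in which the trend of each embryo's levels with the GC content of the exons was taken out. That trend separated every Ctrl embryo from every cKO embryo, so the correction may also take out an effect of genotype. Trend and genotype cannot be told apart in this design.

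Sesn2 had the largest log2 fold change of the members in cKO and Sesn1 the next. Sesn2 (ENSMUSG00000028893.9, GRCm38 chromosome 4, 132492032 to 132510501, minus strand) had 14.2, 14.7 and 10.6 CPM in Ctrl and 41.4, 63.4 and 30.01 in cKO. Every cKO embryo was well above the controls, and the cKO embryos themselves spread widely, with a coefficient of variation of 37.8% against 17.1% in Ctrl. The edgeR log2 fold change was 1.77 (SE 0.49, adjusted p = 0.0651), a 3.41-fold difference, and the DESeq2 adjusted p was 0.00501. Sesn1 (ENSMUSG00000038332.14, chromosome 10, 41809935 to 41908424, plus strand) had 32.5, 29.95 and 32.2 CPM in Ctrl and 65.2, 64.5 and 51.6 in cKO. The controls were nearly equal and every cKO embryo was well above them. Its edgeR log2 fold change was 0.94 (SE 0.23, adjusted p = 0.0530) and its DESeq2 adjusted p was 0.00468. Sesn3, the third sestrin, known as a FoxO target, had mean levels of 144 CPM in Ctrl and 178 in cKO, a log2 fold change of 0.30 (SE 0.21, DESeq2 adjusted p = 0.437).

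Of the repair members, Ercc5 and Polk rose in cKO by DESeq2 and the damage sensors did not pass. Ercc5 (ENSMUSG00000026048.17, chromosome 1, 44147744 to 44181260, plus strand) had 32.1, 31.1 and 34.9 CPM in Ctrl and 59.9, 56.6 and 56.5 in cKO. The embryos of each genotype were tightly grouped and the groups far apart. Its edgeR log2 fold change was 0.82 (SE 0.17, adjusted p = 0.0509), with a DESeq2 adjusted p of 0.000726. Polk (ENSMUSG00000021668.16, chromosome 13, 96480690 to 96542579, minus strand) had 6.69, 6.74 and 8.36 CPM in Ctrl and 13.4, 11.5 and 13.3 in cKO. The groups did not overlap, and its log2 fold change was 0.81 (SE 0.25, edgeR adjusted p = 0.0804, DESeq2 adjusted p = 0.0107). Xpc (ENSMUSG00000030094.9, chromosome 6, 91489305 to 91515888) had 32.9, 38.3 and 25.9 CPM in Ctrl and 35.5, 42.9 and 44.0 in cKO, which overlapped, with a log2 fold change of 0.33 (SE 0.29). Ddb2 (ENSMUSG00000002109.15, chromosome 2, 91211572 to 91236982) was the lowest member, with 2.28, 2.13 and 2.56 CPM in Ctrl and 4.16, 2.16 and 6.97 in cKO. These are 43 to 71 reads in Ctrl and 58 to 185 in cKO, and the second cKO embryo sat within the controls, so the log2 fold change of 0.93 carried an SE of 0.64 (edgeR adjusted p = 0.377).

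Neither the metabolic members nor Rps27l and Ei24 passed DESeq2, or edgeR over the 9 embryos, in cKO. Tigar (ENSMUSG00000038028.10, chromosome 6, 127085116 to 127109557) had 20.5, 23.4 and 24.4 CPM in Ctrl and 22.6, 24.1 and 21.04 in cKO, ranges that overlapped, and a log2 fold change of -0.01 (SE 0.21). Rrm2b (ENSMUSG00000022292.17, chromosome 15, 37923952 to 37961318) had 10.52, 8.18 and 11.6 CPM in Ctrl and 13.7, 14.8 and 15.3 in cKO. All cKO embryos were above the controls, at a log2 fold change of 0.53 (SE 0.31) and an edgeR adjusted p of 0.289. Rps27l (ENSMUSG00000036781.14, chromosome 9, 66946086 to 66949516) had 84.8, 73.9 and 86.1 CPM in Ctrl and 109, 118 and 97.5 in cKO, and Ei24 (ENSMUSG00000062762.18, chromosome 9, 36779159 to 36797393) had 137, 140 and 157 in Ctrl and 171, 159 and 174 in cKO. For both the groups were separate by a small margin, with log2 fold changes of 0.40 (SE 0.25) and 0.21 (SE 0.23) whose edgeR adjusted p-values were 0.320 and 0.584.

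The cKO calls of edgeR depended on how the dcKO embryos entered the model. With only the Ctrl and cKO embryos in the edgeR model, 6 members were higher at an adjusted p under 0.05, against 24.0% of all genes: the 4 above plus Rrm2b and Rps27l. Without dcKO replicates 1, 2 and 3 in turn edgeR had 3, 4 and 4 members higher, against 7.25%, 11.3% and 14.8% of all genes. With a correction for GC content it had 3, Sesn1, Sesn2 and Ercc5, against 4.82%. The corrected log2 fold changes in cKO were 2.24 for Sesn2, 0.84 for Sesn1, 0.63 for Ercc5 and 0.55 for Polk. Rrm2b went from 0.53 to 0.30 (edgeR adjusted p = 0.272) and Rps27l from 0.40 to 0.14 (edgeR adjusted p = 0.566). When single embryos were left out of the DESeq2 fit, Ercc5 had an adjusted p under 0.05 in all 9 fits, Sesn2 in 8, Sesn1 in 6 and Polk in 5. Sesn2 lost its call without cKO replicate 2 (DESeq2 adjusted p = 0.0844). Sesn1 lost it without Ctrl replicate 2, cKO replicate 1 or cKO replicate 2, and Polk without Ctrl replicates 1 or 2 or cKO replicates 1 or 3, with DESeq2 adjusted p-values of up to 0.0682 and 0.116. The codes of the embryos carry a number whose meaning is not stated, and 2 pairs of Ctrl and cKO embryos share one. Within these pairs 9 of the 10 members were higher in the cKO embryo in each, with median log2 ratios of 0.48 and 0.82, where 48.7% and 50.3% of all tested genes were higher and their medians were -0.02 and 0.006. The log2 ratio of Sesn2 was 2.16 and 1.03.

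**Figure D2:**
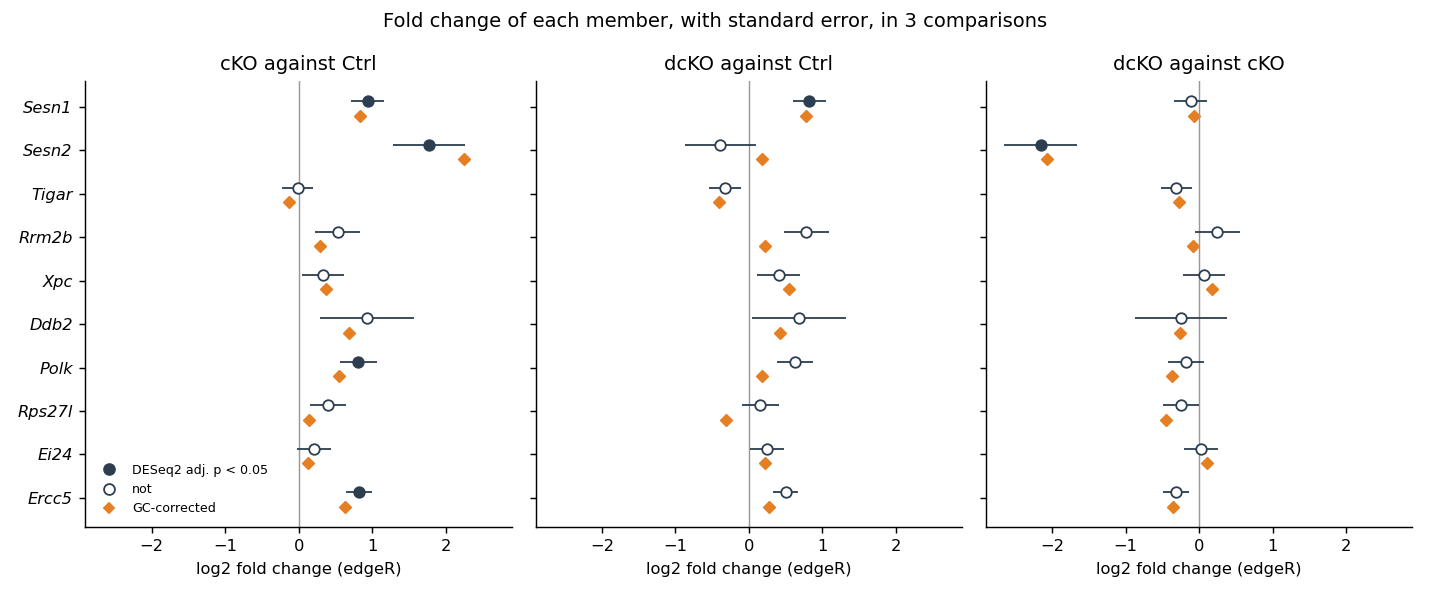
edgeR log2 fold changes of the 10 members in 3 comparisons, with horizontal bars of 1 standard error. Filled circles have a DESeq2 adjusted p under 0.05, and orange diamonds give the fold change after correction for GC content. Sesn2 is at 1.77 in cKO against Ctrl and at -2.16 in dcKO against cKO, while Sesn1 is at 0.94 and 0.82 in the 2 mutants.

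In dcKO cortices, compared with the same 3 controls, Sesn1 rose by DESeq2 and the other 9 members did not pass. That is 1 member higher at a DESeq2 adjusted p under 0.05, a share near the 10.3% of all genes, and 0 lower, against 7.40%. No member had a DESeq2 log2 fold change above 1 with an adjusted p under 0.05 (4.66% of all genes). edgeR called 0 members and 0% of all genes in either direction. At an unadjusted p under 0.05 edgeR had 4 members higher (Sesn1, Ercc5, Rrm2b and Polk), against 18.0% of all genes, and 0 lower. Every dcKO embryo was above every Ctrl embryo for 3 members, Sesn1, Ercc5 and Polk, as for 15.6% of all genes. The median edgeR log2 fold change was 0.45 over the members and 0.11 over all genes. After the correction for GC content it was 0.22 over the members and 0.01 over all genes.

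Sesn1 rose in dcKO by DESeq2, and Sesn2 did not pass a test over the 9 embryos. Sesn1 had 69.9, 38.7 and 58.8 CPM in the dcKO embryos, all above the Ctrl range of 29.95 to 32.5, with a log2 fold change of 0.82 (SE 0.23, edgeR adjusted p = 0.0610, DESeq2 adjusted p = 0.0169). The lowest of them was the second embryo, the one with the most Trp53 mRNA. Sesn2 had 6.36, 4.90 and 19.1 CPM. The first and second dcKO embryos were below every control and the third was above, so that the log2 fold change was -0.39 (SE 0.48, edgeR adjusted p = 0.611). Sesn3 had 293, 258 and 168 CPM, all above its controls, at a log2 fold change of 0.74 (SE 0.21, DESeq2 adjusted p = 0.0261), which was 0.37 (edgeR adjusted p = 0.106) after the correction for GC content.

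The repair members in dcKO lay between Ctrl and cKO or were scattered. Ercc5 had 52.4, 47.7 and 38.9 CPM, all above Ctrl, with a log2 fold change of 0.50 (SE 0.17, edgeR adjusted p = 0.0953, DESeq2 adjusted p = 0.0534). Polk had 12.7, 11.7 and 9.27 CPM, also all above Ctrl, at 0.63 (SE 0.25, DESeq2 adjusted p = 0.0594). Xpc had 42.8, 26.2 and 59.5 CPM and Ddb2 5.22, 0.843 and 5.17, and in both the second embryo was the lowest of the 3. Their log2 fold changes of 0.40 (SE 0.29) and 0.68 (SE 0.63) had edgeR adjusted p-values of 0.370 and 0.492. Among the rest, Rrm2b had 18.5, 23.1 and 10.47 CPM, with only the third embryo inside the Ctrl range, and a log2 fold change of 0.78 (SE 0.31, edgeR adjusted p = 0.129). Tigar had 16.9, 21.7 and 15.9 CPM, the one member besides Sesn2 with a negative log2 fold change, of -0.32 (SE 0.21, edgeR adjusted p = 0.325). Rps27l had 79.6, 130 and 62.8 CPM and Ei24 166, 234 and 114, with the second embryo highest and the third lowest in both.

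The dcKO embryos differed in base composition, and the values of the members are given here with their GC content. The third dcKO embryo, the one with relatively more reads on GC-rich genes, was the highest of the 3 for Sesn2 and Xpc, whose exons are 58.7% and 52.6% GC, the richest of the members. It was the lowest for Rrm2b, Polk and Rps27l, whose exons are 39.4%, 41.6% and 43.1% GC, the poorest, and also for Tigar, Ei24 and Ercc5, whose exons are 47.1% to 49.9% GC. After the correction for GC content Sesn2 had 9.05, 10.3 and 9.71 CPM in Ctrl and 11.4, 9.38 and 12.0 in dcKO. The dcKO embryos then lay within or just above the controls, while the cKO embryos stayed at 45.2, 58.6 and 33.9. Rrm2b had 12.6, 10.1 and 13.1 corrected CPM in Ctrl and 13.9, 14.4 and 13.2 in dcKO, and its corrected log2 fold change was 0.21 in place of 0.78. Polk went from 0.63 to 0.17 and Ercc5 from 0.50 to 0.27, while Sesn1 kept 0.77. Rps27l turned from 0.16 to -0.31 and Sesn2 from -0.39 to 0.17. The dcKO embryos stayed furthest apart in corrected CPM, by ratio, for Ei24, Sesn1 and Ddb2. They were at 166, 245 and 111 for Ei24, 69.5, 40.05 and 57.5 for Sesn1 and 4.30, 0.677 and 5.80 for Ddb2. Those of Xpc, at 49.8, 33.4 and 51.1, and of Rps27l, at 62.9, 95.4 and 73.1, also stayed apart. The part of base composition in these differences was not tested beyond this correction.

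**Figure D3:**
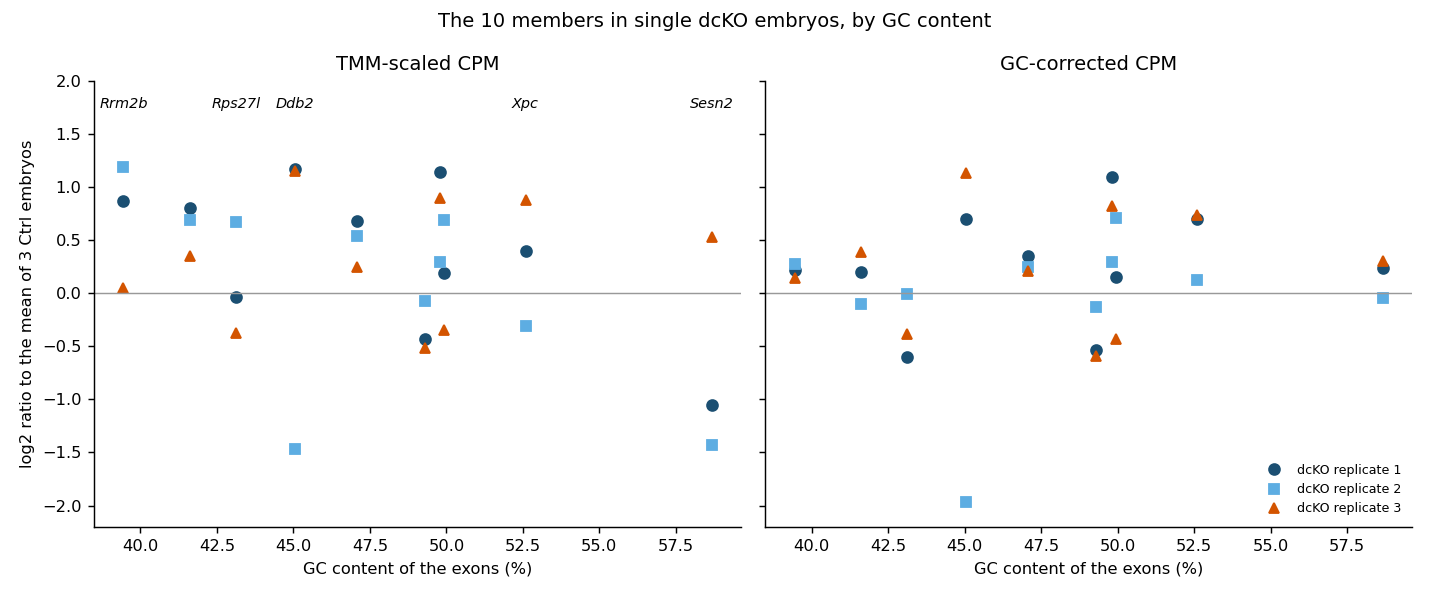
log2 of the level of each member in each dcKO embryo over its Ctrl mean (y axis) by the GC content of its exons in percent (x axis), before (left) and after (right) correction for GC content. Before it, the 3 embryos of Sesn2 and Rrm2b, at 58.7% and 39.4% GC, lie far apart, and after it they lie close together, whereas the low value of Ddb2 in replicate 2 and the scatter of Ei24 and Sesn1 stay.

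The dcKO calls of edgeR changed when single dcKO embryos were left out. Without replicate 1 edgeR had 0 members at an adjusted p under 0.05, and 0% of all genes. Without replicate 2, the embryo with the most Trp53 mRNA, it had 1 higher, Sesn1, at a log2 fold change of 1.03 (adjusted p = 0.00644), against 12.0% of all genes. Without replicate 3 it had 5 higher, Sesn1, Ercc5, Polk, Rrm2b and Ei24, against 25.5% of all genes, and Sesn2 was lower at -1.23 (adjusted p = 0.00954), against 23.7% of all genes. Without replicate 2 Tigar had a DESeq2 adjusted p of 0.0392 at a lower level than Ctrl, in a fit where 25.3% of all genes passed in either direction. The DESeq2 call of Sesn1 was lost without any one Ctrl embryo or without dcKO replicate 1, at adjusted p-values of up to 0.124. In the 1 pair of Ctrl and dcKO embryos that share a code number, Ctrl replicate 3 and dcKO replicate 3, 6 of the 10 members were higher in the dcKO embryo, as were 53.7% of all tested genes, with log2 ratios of 0.87 for Sesn1 and 0.85 for Sesn2.

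The comparison of dcKO with cKO tests whether the 2 mutants differ. Sesn2 was the 1 member that was lower in dcKO by DESeq2, at an adjusted p of 0.00356, where 0.402% of all genes were lower at an adjusted p under 0.05. Its edgeR log2 fold change was -2.16 (SE 0.50), and every dcKO embryo, at 4.90 to 19.1 CPM, was below every cKO embryo, at 30.01 to 63.4. edgeR over the 9 embryos gave it an adjusted p of 0.633 and called 0 members, with 0% of all genes higher and 0.0146% lower. At an unadjusted p under 0.05 it had 1 member lower, again Sesn2, against 2.38% of all genes. With the correction for GC content the log2 fold change was -2.07 (edgeR adjusted p = 0.00770), and 0.0439% of all genes were lower. Without dcKO replicate 3 it was -3.00 (edgeR adjusted p = 0.00878), against 13.1% of all genes lower. The DESeq2 call was lost without cKO replicate 1 or cKO replicate 2, at adjusted p-values of up to 0.262.

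For the other 9 members no difference between the mutants was detected. Ercc5 was the only other one with every dcKO embryo below every cKO embryo, so 2 of the 10 were separate in this way against 3.63% of all genes, and its log2 fold change was -0.32 (SE 0.17, edgeR adjusted p = 0.889). Sesn1 differed by -0.12 (SE 0.23), Polk by -0.18 (SE 0.25) and Tigar by -0.31 (SE 0.21). Rps27l and Ddb2 both differed by -0.25, with an SE of 0.25 and 0.62. Rrm2b, Xpc and Ei24 were higher by 0.25, 0.07 and 0.03 with an SE of 0.23 to 0.30. The absence of a call does not show equal levels. The median over the members was -0.22, and over all genes 0.07.

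p53 targets of the other class were set beside the members, with a list of 20 genes for arrest, feedback and apoptosis. Bbc3, Fas and Pmaip1 did not pass the filter on low counts, so 17 were tested. In cKO, 9 of them had a DESeq2 adjusted p under 0.05 and were higher and 0 were lower, against 9.60% and 7.07% of all genes, with a median edgeR log2 fold change of 0.52. The 9 were Eda2r, a receptor of the TNF family, at 4.22 (SE 0.43), Cdkn1a, the inhibitor of cyclin-dependent kinases p21, at 2.46, Ccng1 at 2.39, Phlda3 at 1.90, Perp at 1.79, Trp53inp1 at 1.39, Tnfrsf10b at 1.36, Plk2 at 1.34 and Ppm1d at 0.52. Sesn2 would stand between Perp and Trp53inp1 among these, and the other members that passed DESeq2, Sesn1, Ercc5 and Polk, between Plk2 and Ppm1d, as would Ddb2 and Rrm2b, which did not pass. The lowest of the list in cKO were Pidd1 at -0.58, Mdm2 at -0.39 and Btg2 at -0.34, which did not pass DESeq2. In dcKO, where the median was 0.15 and -0.07 after the GC correction, 0 of the 17 were higher and 3 were lower by DESeq2, against 10.3% and 7.40% of all genes, namely Phlda3 at -1.18, Aen at -1.20 and Pidd1 at -1.01, where the GC-corrected values were 0.11, -1.06 and -0.42. Between dcKO and cKO 6 of the 17 were lower by DESeq2, at -1.12 to -3.98, with a median over the list of -0.998, and 1 of the 10 members was, Sesn2, against 0.402% of all genes. The first dcKO embryo had 27.9 CPM of Cdkn1a, the second 8.99 and the third 21.5, the lowest being the embryo with the most Trp53 mRNA. That embryo had the highest level of the 3 for Ccng1, at 54.4 CPM, and for Trp53inp1, at 96.7.

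**Figure D4:**
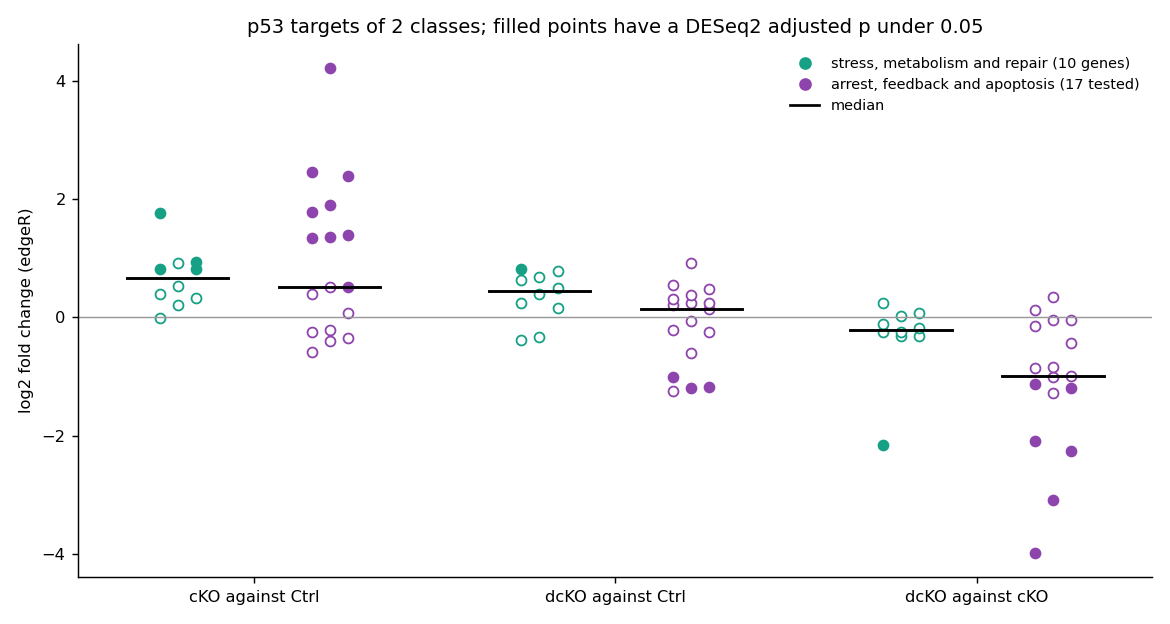
edgeR log2 fold changes of the 10 members and of the 17 tested arrest, feedback and apoptosis targets in 3 comparisons. Filled points have a DESeq2 adjusted p under 0.05, and black bars are medians. Between dcKO and cKO, 6 of the 17 and 1 of the 10, Sesn2 at -2.16, are filled and lower, as were 0.402% of all genes.

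A second list of 15 further p53 targets in stress, metabolism and repair, 13 of them tested, had a median of 0.31 in cKO and 0.36 in dcKO, with 1 and 2 genes higher by DESeq2, against 9.60% and 10.3% of all genes. Gls2, the p53-inducible glutaminase, was higher by DESeq2 in both mutants. It had 1.59, 1.04 and 1.118 CPM in Ctrl, 4.01, 4.61 and 5.20 in cKO and 5.22, 2.20 and 5.01 in dcKO, log2 fold changes of 1.88 (SE 0.41) and 1.72 (SE 0.41). Pank1, a pantothenate kinase, was higher in dcKO, at 0.81 (SE 0.21), and stood at 0.31 (SE 0.20) in cKO, and the difference between the mutants of 0.50 had a DESeq2 adjusted p of 0.798. None of the 13 was lower by DESeq2 in either mutant.

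In the pathways around the members, genes were counted as higher or lower by DESeq2 at an adjusted p under 0.05, which over all tested genes was 9.60% higher and 7.07% lower in cKO and 10.3% and 7.40% in dcKO. Of 22 genes of nucleotide excision repair, the pathway of Xpc, Ddb2 and Ercc5, 1 was higher in cKO and 2 in dcKO, with 0 lower, shares below those over all genes. Xpa, which verifies the damage and positions the nucleases, had 6.65, 8.78 and 11.8 CPM in Ctrl, 21.7, 22.4 and 21.3 in cKO and 29.98, 22.5 and 19.2 in dcKO. Its log2 fold changes were 1.26 (SE 0.27) and 1.39 (SE 0.28), and no mutant embryo overlapped with a control. Gtf2h2, a subunit of TFIIH, was higher in dcKO at 0.79 (SE 0.21) and stood at 0.63 (SE 0.21, DESeq2 adjusted p = 0.0503) in cKO. The median over the 22 genes was 0.04 in cKO and 0.11 in dcKO. Of 7 genes of translesion synthesis, the process of Polk, with medians of 0.43 in cKO and 0.48 in dcKO, both 0.23 after the GC correction, Rev1, a scaffold for these polymerases, was higher in cKO at 0.82 (SE 0.20). In dcKO Primpol, at 0.82 (SE 0.25), and Poli, at 1.21 (SE 0.34), were higher. Polh, a close relative of Polk and a p53 target in other settings, was at -0.04 (SE 0.19) in cKO and -0.25 (SE 0.19) in dcKO.

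Around the sestrins, 2 of 21 tested genes of the mTORC1, AMPK and antioxidant arms were higher and 1 lower in cKO, and 2 were higher and 2 lower in dcKO, with medians of 0.16 and -0.01. Besides Sesn3 in dcKO, these were Prkaa1, Wdr59, Ulk1 and Castor2, and their number is near the share over all genes. Prkaa1, a catalytic subunit of AMPK, was higher in both, at 0.73 (SE 0.20) and 0.66 (SE 0.20), and Wdr59 of the GATOR2 complex, to which sestrins bind, was higher in cKO at 1.01 (SE 0.32). Ulk1, the kinase that starts autophagy, was lower in both at -1.29 (SE 0.29) and -1.0003 (SE 0.29). Castor2 was lower in dcKO at -1.05 (SE 0.31). Of 10 genes of deoxynucleotide supply, the process of Rrm2b, Dguok, a mitochondrial deoxyguanosine kinase, was higher in cKO at 1.04 (SE 0.32). Rrm2, the S-phase paralogue of Rrm2b, was at -0.20 (SE 0.26) in cKO and 0.02 (SE 0.26) in dcKO. Of 11 tested enzymes of the pentose phosphate pathway and of fructose-2,6-bisphosphate, the processes of Tigar, Pfkfb1 was higher in cKO at 1.05 (SE 0.33) and Tkt, the transketolase, lower at -1.30 (SE 0.49). The medians in cKO and dcKO were -0.16 and 0.02 for deoxynucleotide supply and -0.20 and -0.19 for the pentose phosphate list. Neither of those lists had a call in dcKO, and none of the 5 pathway lists had a call between the mutants. After the GC correction the medians in cKO and dcKO were 0.07 and 0.11 for the sestrin list, -0.03 and -0.05 for nucleotide excision repair, -0.34 and -0.24 for deoxynucleotide supply and -0.44 and -0.20 for the pentose phosphate list. Single dcKO values were closer to 0 for Sesn3 at 0.37, Prkaa1 at 0.17, Ulk1 at -0.23, Gtf2h2 at 0.30 and Primpol at 0.38. The corrected value of Ulk1 in cKO was -0.83, and that of Pank1 in dcKO, from the second list of p53 targets, was 0.51.

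The mean profile of the 10 members, each centred on its own mean log2 CPM over the 9 embryos, was -0.31, -0.34 and -0.26 in Ctrl, 0.35, 0.34 and 0.36 in cKO and 0.08, -0.21 and -0.01 in dcKO. The cKO embryos were nearly equal, and every dcKO embryo lay between the 2 other genotypes. Single members followed this mean to differing degrees. Their Pearson r with it over the 9 embryos was highest for Ercc5, at 0.90, and lowest for Ei24, at 0.16, and Tigar, at -0.05. The 5 genes outside the list whose log2 CPM followed this profile most closely among 13670 were S100a13 (Pearson r 0.969 over 9 embryos), Nudt13 (0.961), Ndufaf6 (0.959), Mapre2 (0.952) and Adamts1 (0.949). The 9 points share the 3 genotypes, so r mostly describes the order of the group means.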

How the data were processed

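The authors dissected cortices of single E12.5 embryos, prepared stranded poly(A) libraries, trimmed adapters with Cutadapt, aligned paired-end reads to mm39 with STAR and counted them with featureCounts. Tool versions, annotation release and strand setting are not given in the sources used here. They deposited raw counts of reads for 57010 genes. Embryos were assigned to genotypes by their labels. Counts were tested with edgeR 4.0.16 (TMM, quasi-likelihood test, R 4.3.3) in one model of 9 embryos, over the 13680 genes whose count exceeded 10 in each embryo. A gene was called at a log2 fold change beyond 1 in size with a p-value, adjusted by Benjamini-Hochberg over these genes, under 0.05. DESeq2 1.42.0, the tool of the study, was run on the same genes. SE is the log2 fold change divided by the square root of F. CPM are counts scaled by the TMM library size. Alternatives were RLE factors, no filter, limma 3.58.1 voom with quality weights, models of just the 6 embryos of a comparison, leaving out each embryo, the replicate number as a block, and a GC correction (loess of log2 CPM on GC content, span 0.3). Coordinates, exon lengths and GC content came from GENCODE M21 on GRCm38, matched by Ensembl identifier (52081 genes), and promoter sequences from RefSeq, with 7 of 10 members matched. The rest was computed in Python 3.11.15 with SciPy 1.17.1, pandas 2.3.3 and NumPy 2.4.6.

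The members and gene lists were chosen with earlier results of these data known. Named are the members, Cnot3, Trp53, list genes called by edgeR or DESeq2, otherwise up to 4 with the smallest edgeR p in cKO, paralogues of members, and the 5 genes most like the mean member profile. Embryos of a genotype are different animals. The fits were tested on simulated counts for cKO against Ctrl. Of 193 genes changed 4-fold among 13344, 79.8% were recovered by edgeR, which made 6 false calls, and 93.3% by DESeq2, which made 38. Apart from these genes the simulation gave all 3 genotypes the Ctrl means, with no trend with GC content. No member differed by so much in cKO, where Sesn2 had the largest difference, 3.41-fold. In the real comparison edgeR called 0.0146% of all genes higher and 0% lower. The recovered shares are therefore not the power to detect the members.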

Additional observations from a re-analysis of the deposited data

Results flagged for a closer look

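Sesn2 was the member whose change differed between the mutants. The DESeq2 log2 fold change in dcKO against cKO was -2.18 (adjusted p = 0.00356), with 41.4, 63.4 and 30.01 CPM in the cKO embryos and 6.36, 4.90 and 19.1 in the dcKO embryos. It was listed because the test of the difference passed in DESeq2, whereas edgeR over the 9 embryos gave an adjusted p of 0.633.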

How the results depend on the processing

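Counts of members with an adjusted p under 0.05 are given with the share of all tested genes, in either direction. In cKO there were 0 such members with RLE factors (0.0146% of all genes) and with the replicate block (0%), 1 without a filter (3.67%) and with the replicate block plus GC correction (0.0292%), 3 with the GC correction (10.5%), 4 with DESeq2 (16.7%), 6 with only the 6 embryos compared (48.2%) and 8 with voom (54.9%). Of these 1 was also called under every setting but RLE factors and the replicate block. The share of all genes called was 3.03% without a filter, 4.73% with the GC correction and 0.0292% with the block plus that correction. It was 8.82% with DESeq2, 12.9% with only the 6 embryos compared and 13.7% with voom. In dcKO there was 1 such member with DESeq2 (17.7% of all genes) and 4 with voom (52.7%). Of these 0 were called with DESeq2, against 8.46% of all genes, and 1 with voom, against 26.8%. In dcKO against cKO there was 1 with DESeq2 (0.431%), voom (0.278%), the GC correction and that correction with the block (0.0439% each). It was also called in each, against 0.38%, 0.197%, 0.0439% and 0.0439% of all genes in that order. With each embryo left out edgeR had 0 to 4 such members in cKO (0% to 29.7% of all genes), 0 to 6 in dcKO (0% to 49.2%) and 0 to 1 between the mutants (0% to 26.6%). In the same order it called 0 to 1, 0 to 2 and 0 to 1 members. The shares of all genes it called were 0% to 10.8%, 0% to 23.7% and 0% to 9.04%. DESeq2 had 2 to 5 (4.69% to 36.2%), 0 to 6 (4.67% to 52.7%) and 0 to 1 (0.117% to 34.2%). It called 0 to 2, 0 to 2 and 0 to 1 members. The shares of all genes it called were 3.72% to 11.8%, 2.94% to 24.1% and 0.117% to 10.5%. The 6 in dcKO came without dcKO replicate 3, where 49.2% of all genes passed in edgeR and 52.7% in DESeq2.

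Over the alternatives of single genes, 24 values changed sign, 35 passed the threshold where the reported fit did not, and 519 kept both direction and side of the threshold. In cKO Tigar ranged from -0.0809 to 0.0432 with embryos left out. In dcKO Sesn2 was -1.04 with voom, 0.17 with the GC correction and 0.18 with the block and GC correction, Rps27l -0.31 and -0.33 in the same fits and -0.20 to 0.36 with embryos left out, and Ei24 -0.0493 to 0.47. Between the mutants Sesn1 was 0.0993 with voom and -0.31 to 0.0900 with embryos left out, Rrm2b -0.0810 with the GC correction, -0.0799 with the block and GC correction and -0.0129 to 0.51 with embryos left out, Xpc -0.24 to 0.33, Ddb2 0.0701 with voom and -0.58 to 0.23, and Ei24 -0.0155 without a filter, -0.0255 with voom, -0.00318 with the replicate block and -0.26 to 0.25 with embryos left out. Without a change of sign, Ddb2 in dcKO ranged from 0.0528 to 0.96, Rrm2b from 0.21 to 0.95 and Polk from 0.17 to 0.81 over the alternatives with all embryos of a comparison. In cKO Xpc ranged from 0.20 to 0.47 with embryos left out, and Ei24 was at 0.12 with the GC correction. Ddb2 in cKO was 0.43 without cKO replicate 3 and 1.26 without cKO replicate 2, and in dcKO 0.35 without dcKO replicate 1, 0.38 without replicate 3 and 1.16 without replicate 2. Xpc in dcKO was 0.0919 without dcKO replicate 3 and 0.66 without replicate 2. Between the mutants Rps27l ranged from -0.60 to -0.04 and Polk from -0.28 to -0.06 with embryos left out. Polk was at -0.38 there with the GC correction. The cause was not tested.

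Same-numbered embryos did not deviate together (mean r -0.169 over 9 pairs, against 0.0837 over 18 others), so the replicate number was not taken as a pairing, and with the replicate block 0 members and 0% of all genes had an adjusted p under 0.05 in any comparison. Depth limits mainly Ddb2, with 33 to 188 reads per embryo.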

Other observations

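Sesn2 is also a target of Atf4, the transcription factor of the integrated stress response, and 9 genes of an Atf4 list were tested. By DESeq2, 1 was higher and 1 lower in each mutant, against 9.60% and 7.07% of all genes in cKO and 10.3% and 7.40% in dcKO. Ddit4, an inhibitor of mTORC1 that is also a p53 target, had 61.6, 60.4 and 45.8 CPM in Ctrl, 112, 146 and 115.7 in cKO and 114, 57.4 and 190 in dcKO, log2 fold changes of 1.15 (SE 0.36) and 1.11 (SE 0.36). Its second dcKO embryo was inside the control range. After the GC correction the log2 fold changes of Ddit4 were 1.58 in cKO and 1.73 in dcKO. Atf5 was lower in both, at -1.003 (SE 0.27) and -1.05 (SE 0.27), but after the GC correction these were -0.22 and 0.18. Atf4 itself was at -0.74 (SE 0.25, DESeq2 adjusted p = 0.0561) in cKO. The median of the list was -0.001 in cKO and -0.15 in dcKO.

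Of the genes closest to the mean member profile, Adamts1, a secreted metalloprotease, had the largest log2 fold change in cKO, 1.53. It was chosen for this profile, in which cKO lies above Ctrl, so this difference is a description with no test. It had 12.8, 11.2 and 11.9 CPM in Ctrl, 32.4, 34.6 and 36.8 in cKO and 31.6, 10.498 and 16.1 in dcKO, so the first dcKO embryo was near cKO and the second was below the controls.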
